A study of Danio rerio with 4 samples.

Results

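The endocrine lineage regulator genes neurog3, rfx6, nkx2.2a and sox11a and the insulin gene ins were followed in 2 tables of genes that the submitters called different between sorted cell populations of the zebrafish pancreas. These 5 genes were chosen by name among the 3020 distinct listed genes, so their being listed is not a result. The table of replicate 1 lists 1812 genes, 4 of them members, and the table of replicate 2 lists 1560 genes, 3 of them members. Both tables hold nkx2.2a and sox11a, and 352 of the 3020 distinct listed genes (11.7%) are in both.

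RNA was sequenced from centroacinar cells (CAC) and from non-centroacinar cells (non-CAC) that had been sorted from dissociated pancreas of adult zebrafish of strain AB. No transgene, agent or treatment is named for either population, and the labels do not state how the sorting gate was set or how many fish were pooled. The 4 libraries form 2 replicates, each with 1 CAC and 1 non-CAC library, and each replicate has its own table. Whether the replicates are separate groups of fish is not stated, so their spread may be technical.

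Each row of a table gives 1 ratio between the libraries of that replicate and no level in either library. Which population stands in the numerator is not named in the headers. A gene is therefore described as lying below 1 or above 1, on the log2 scale of the deposited posterior fold. Each listed gene has a posterior probability of difference of 0.99 or more. Genes short of that are not in the tables, so a gene missing from a table gives no information on its size or side there. Total counts per library are unknown, so no counting interval or detection limit is given. In bulk populations, fewer cells of a type and less RNA per cell cannot be told apart.

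Hormone cells of the pancreas arise from epithelial progenitors that also give rise to duct cells, and Notch signalling holds such progenitors back from endocrine differentiation. In the mouse, the basic helix-loop-helix factor encoded by Neurog3 starts the endocrine programme and Rfx6, a winged-helix factor, acts downstream of it. In zebrafish, ascl1b and neurod1 carry much of the role that Neurog3 has in the mouse. The homeodomain factor gene nkx2.2a is expressed in zebrafish duct and endocrine cells, sox11a encodes an HMG-box factor of the SoxC group, and ins encodes the hormone of the beta cell.

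The 5 genes did not lie on a common side. In the authors' deposited tables nkx2.2a and sox11a were below 1 in each replicate, neurog3 lay below 1 and rfx6 above 1 in replicate 1 alone, and ins lay above 1 in replicate 2 alone. Thus 3 of the 4 members listed in replicate 1 lay below 1, where 33.4% of all genes in that table did, and 1 lay above 1, where 66.6% did. In replicate 2, 2 of the 3 listed members lay below 1, against 57.1% of that table, and 1 above, against 42.9%. No member lay above 1 in both, as 32.7% of the 352 genes in both tables did, and neither of the members in both tables changed sides. With so few members, these shares are not read as different from those of the tables.

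**Figure D1:**
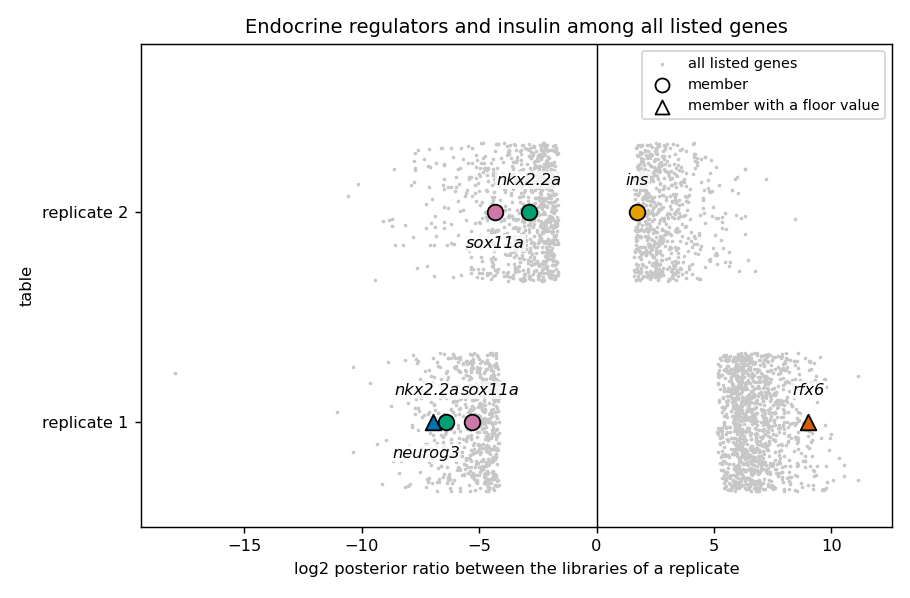
The log2 posterior ratio of every listed gene (grey points, spread vertically at random) and of the 5 members (large symbols) in the table of each replicate. Triangles mark floor genes, whose uncorrected and posterior folds differ by over 10 times. In replicate 1, neurog3, nkx2.2a and sox11a lie below 0 and rfx6 at 9.03, and in replicate 2 sox11a and nkx2.2a lie below 0 and ins at 1.71.

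The factor that marks the start of the endocrine programme in the mouse, neurog3 (ENSDARG00000016951, Zv9 chromosome 13, 25985168 to 25986281), had in the authors' deposited table for replicate 1 a ratio of 0.00811. This is 123-fold below 1, or -6.95 on the log2 scale, and ranked 68th of the 606 genes below 1 in that authors' deposited table. The uncorrected fold of neurog3 was far smaller, at 5.66e-05 (-14.11 on the log2 scale) in the authors' deposited table, a factor of 143 from the posterior fold. Its deposited posterior probability of equal expression was 6.63e-06. Which size applies to neurog3 thus depends on the fold column, while the side does not.

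Such a gap between the fold columns set neurog3 apart from most genes on its side. Genes whose folds differ by over 10 times are called floor genes here. Of the members, 2 of 4 in replicate 1 were floor genes, where 45.2% of that table was, and 0 of 3 in replicate 2, where 10.4% was. Below 1 they are rarer, and 52 of the 606 genes below 1 in replicate 1 (8.58%) were floor genes. Their factors ran from 138 to 144, with no other gene on that side above 6.26. Of these 52 floor genes, 2 were also listed below 1 in replicate 2, whereas 214 of the 554 other genes on that side were. The absence of neurog3 from the table of replicate 2 is shared with most floor genes of its side.

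The gene rfx6 (ENSDARG00000041702, Zv9 chromosome 20, 42538368 to 42565884) lay on the opposite side, where the authors' deposited table for replicate 1 gave it a ratio of 521. On the log2 scale this is 9.03, and rfx6 ranked 49th of the 1206 genes above 1 in that authors' deposited table. The uncorrected fold of rfx6 was 75093 (16.20 on the log2 scale) in the authors' deposited table, a factor of 144. Its deposited posterior probability of equal expression was 2.20e-05. Like neurog3, rfx6 was a floor gene, but on its side floor genes were the majority, 767 of 1206 (63.6%). Of those 767 floor genes, 77 were also listed above 1 in replicate 2, and rfx6 was not among them. Of the 439 other genes on that side 38 (8.66%) were, against 9.54% of all 1206 genes there. Unlike below 1, floor genes above 1 were thus not missing from replicate 2 more often than the other genes.

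Thus neurog3 and rfx6, neighbouring steps of the mouse endocrine programme, lay on opposite sides of the same authors' deposited table for replicate 1. Both were missing from the table of replicate 2. Of the 3020 distinct listed genes, only 11.7% were in both tables. In replicate 2 genes as near to 1 as a ratio of 0.325 below and 2.98 above were listed in the authors' deposited table. The log2 ratio of neurog3 in replicate 1 was within the range listed in replicate 2, and that of rfx6 was above the highest one listed there, 8.47. Each gene's result rests on 1 pair of libraries.

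**Figure D2:**
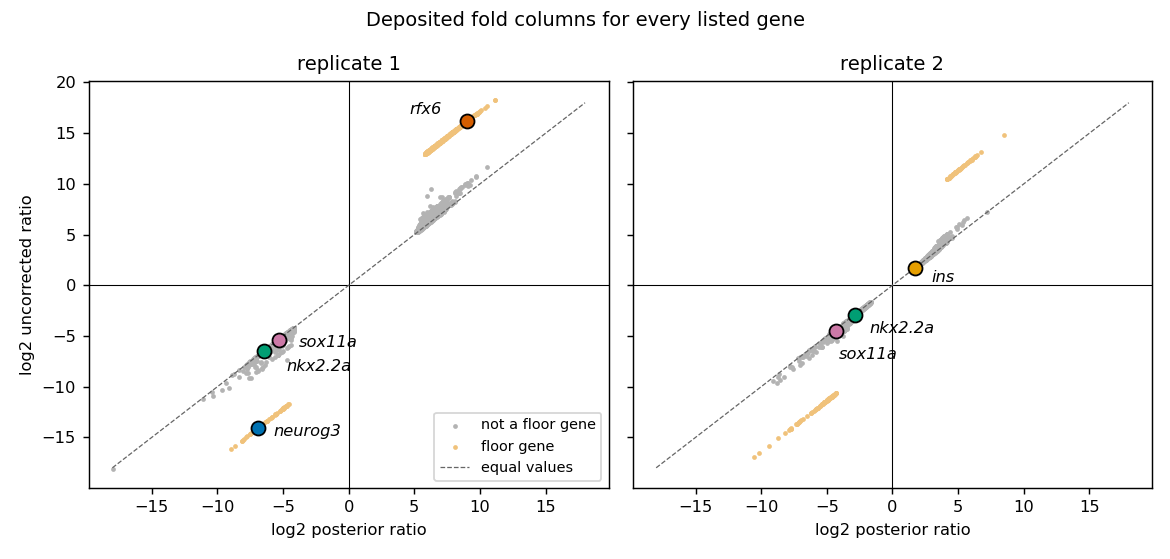
The log2 uncorrected ratio against the log2 posterior ratio for every listed gene, with 1 panel per replicate. Floor genes (orange) form bands away from the dashed line of equal values, and neurog3 (-14.11 against -6.95) and rfx6 (16.20 against 9.03) lie on these bands, while nkx2.2a, sox11a and ins lie near the line.

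The homeodomain gene nkx2.2a (ENSDARG00000053298, Zv9 chromosome 17, 42929654 to 42937363) had a ratio of 0.0116 in replicate 1 and of 0.135 in replicate 2 in the authors' deposited tables. These are 85.9-fold and 7.39-fold below 1, or -6.42 and -2.89 on the log2 scale of the authors' deposited tables. The deposited posterior probabilities of equal expression were 9.58e-06 and 2.35e-06. By size of ratio nkx2.2a ranked 111th of 606 genes below 1 in replicate 1, but 421st of 890 in replicate 2, close to the middle of that side. Centred on the median of all listed genes of each table, its log2 ratio was -12.45 in replicate 1 and -0.99 in replicate 2. Those medians, 6.02 and -1.90, come from called genes only and do not mark equal expression. The uncorrected folds of nkx2.2a, 0.0115 and 0.129 in the authors' deposited tables, were close to the posterior folds.

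The SoxC gene sox11a (ENSDARG00000077811, Zv9 chromosome 17, 36055471 to 36058769) had a ratio of 0.0251 in replicate 1 and of 0.0498 in replicate 2 in the authors' deposited tables. These are 39.9-fold and 20.1-fold below 1, or -5.32 and -4.33 on the log2 scale of the authors' deposited tables. The deposited posterior probability of equal expression was 0.000271 in replicate 1 and 3.61e-10 in replicate 2. Its rank moved the other way from that of nkx2.2a, from 265th of 606 in replicate 1 to 191st of 890 in replicate 2.

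The order of these genes therefore reversed between replicates. In replicate 1 nkx2.2a lay farther below 1 than sox11a, with a log2 difference of -1.11 (nkx2.2a minus sox11a), and in replicate 2 it lay nearer to 1, with a difference of 1.44, both from the authors' deposited tables. Between replicates the log2 ratio differed by -0.99 for sox11a (replicate 1 minus 2) and by -3.54 for nkx2.2a. Among the 216 genes below 1 in both tables, the median of that difference was -2.68, 12 genes had a smaller gap than sox11a and 170 a smaller gap than nkx2.2a. So sox11a was among the genes whose ratio was nearest to the same in both tables, although the tables list different ranges of ratio.

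Over the replicates the mean log2 ratio was -4.82 ± 0.70 (SD, n = 2) for sox11a and -4.65 ± 2.5 (SD, n = 2) for nkx2.2a, from the authors' deposited tables. These means do not differ beyond their spread. Both were below 1 in 2 of 2 replicates, as were 216 of the 352 genes in both tables (61.4%). A limma fit over all 352 genes, in which the replicate is the block, gave an unadjusted p of 0.0281 for sox11a and 0.0340 for nkx2.2a. After Benjamini-Hochberg adjustment over the 352 genes both stood at 0.0816, so neither passed 0.05. That limma test called 4 genes below 1 (1.14%) and 0 above 1 at an adjusted p of 0.05, against 104 (29.5%) and 93 (26.4%) at an unadjusted p of 0.05. The standard error was 2.19 for both genes, because limma gave all genes the same spread, so the closer agreement of sox11a did not enter its p. The 352 genes were selected for large ratios in both tables, and the p-values carry that selection.

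**Figure D3:**
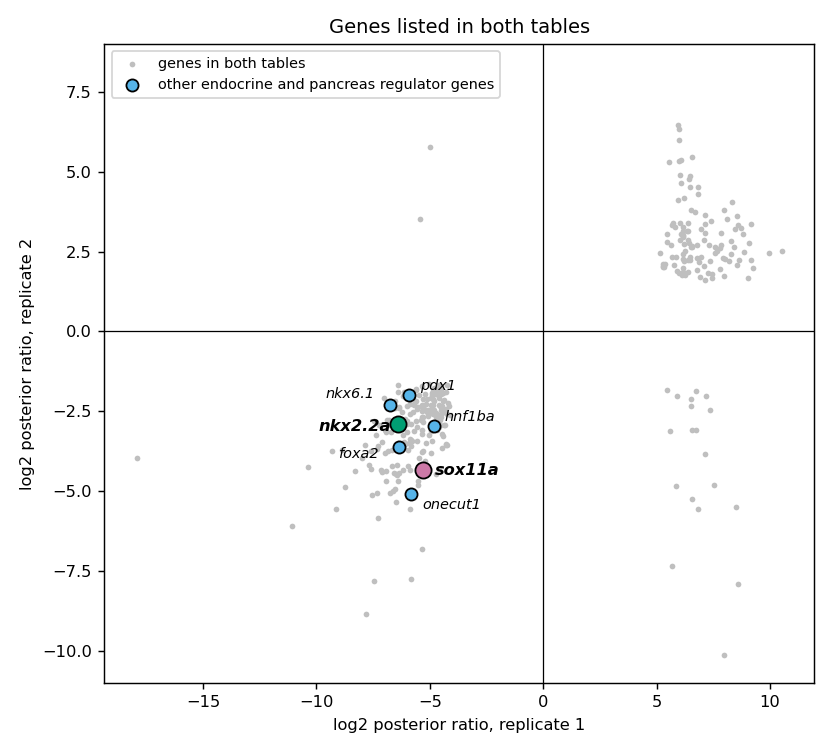
The log2 posterior ratio in replicate 2 against that in replicate 1 for the 352 genes listed in both tables (grey). The members nkx2.2a and sox11a and 5 other genes of the regulator list (blue) all lie in the lower left, below 1 in both, with nkx2.2a at -6.42 and -2.89 and sox11a at -5.32 and -4.33.

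Genes with ratios most like those of nkx2.2a were sought among 229 genes in both tables whose name is not a clone name, by distance over the 2 log2 ratios. The nearest were entpd8, an ectonucleotidase gene, at a distance of 0.0815, and her6, a Hes-family repressor gene induced by Notch, at 0.205. By the authors' deposited tables entpd8 was at -6.34 and -2.88 and her6 at -6.63 and -2.88. The next were the claudin gene cldn15a, the homeobox gene prox1 and fabp1b.2, a fatty acid binding protein gene, at distances of 0.224, 0.289 and 0.329. For sox11a the nearest were irg1l, the complement gene C5 and the neuregulin receptor gene erbb3a, at distances of 0.171, 0.289 and 0.393, followed by PLAT and SYNPO2L at 0.540 and 0.571. The authors' deposited tables placed irg1l at -5.49 and -4.32. These distances rest on 2 values per gene.

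Insulin, the product of differentiated beta cells, was listed in replicate 2 alone. The gene ins (ENSDARG00000035350, Zv9 chromosome 5, 39454958 to 39457905) had in the authors' deposited table for replicate 2 a ratio of 3.28, or 1.71 on the log2 scale, and the uncorrected fold was also 3.28. Its deposited posterior probability of equal expression was 0.00328. The ratio of ins was among those nearest to 1 on its side, ranking 634th of 670, with 36 listed genes nearer still. No ratio above 1 that was smaller than 35.3 was listed in the authors' deposited table for replicate 1. The table of replicate 1 therefore lists no gene with a ratio of the size of ins, and 639 of the 670 genes above 1 in replicate 2 had ratios smaller than 35.3.

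The side of ins held 42.9% of the genes listed in replicate 2. On it lay all 17 listed genes of the acinar list, which holds digestive enzyme genes and acinar regulators. Their ratios ran from 4.49 to 11.7 in the authors' deposited table for replicate 2, so ins was nearer to 1 than any of them. Among them were the elastase gene ela2l at 11.7, the trypsin genes prss59.1 at 11.1 and prss59.2 at 10.5 and the acinar regulator gene ptf1a at 6.66 in the authors' deposited table for replicate 2. Neither this list nor ins was in the table of replicate 1, which holds no ratio above 1 that is smaller than 35.3. Leukocyte genes lay on this side too, with 3 listed in replicate 2, all above 1. The part of these cell types in the ins ratio was not tested.

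The genes nearest to neurog3 and rfx6 in ratio, among 1023 genes of replicate 1 alone, rest on 1 value each. For neurog3 they were the proenkephalin gene penkb, FAM5C and TMEM114, at -6.96, -7.03 and -7.04 in the authors' deposited table, none of them a floor gene. For rfx6 they were C3H19orf39, WDR31 and galnt8b, at 9.03, 9.01 and 9.01 in the authors' deposited table. For ins, among 642 genes of replicate 2 alone, they were agxtb, the apolipoprotein gene apoa1 and GALT, at 1.72, 1.71 and 1.73 in the authors' deposited table.

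Few listed genes lay near the members on the chromosomes. No listed gene with a readable locus overlapped a member. Within 500 kb of rfx6, vgll2a, a gene for a transcription cofactor, lay 66741 bases away and at 6.60 in the authors' deposited table for replicate 1, on the same side as rfx6 and also a floor gene. All listed genes in this window, 3 in replicate 1 and 4 in replicate 2, lay above 1. Of all listed genes 66.6% did in replicate 1 and 42.9% in replicate 2. In the window, si:ch211-215m21.10 and si:ch211-215m21.25 have the same locus, and si:ch211-215m21.15 was listed in both replicates. Within 500 kb of ins, apoa1 lay 121052 bases away and at 1.71 in the authors' deposited table for replicate 2, while the protease gene tmprss4b, 30361 bases away, was at -3.92 in that authors' deposited table. In replicate 1 the only listed gene in the window of ins, cdc42ep2, was at -4.64 in the authors' deposited table. Within 500 kb of nkx2.2a the only listed gene was zgc:92137, 61358 bases away and at 2.52 in the authors' deposited table for replicate 2, on the opposite side. The nearest listed gene to neurog3, 40371 bases away, lay above 1 in replicate 1, on the opposite side. No gene with a readable locus was listed within 500 kb of sox11a, and sox11a and nkx2.2a, although both on chromosome 17, are 6870885 bases apart.

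The other regulators of endocrine and pancreas development were taken from a list of 44 genes that includes the 4 regulator members. Of the other 40 genes, 7 were listed in replicate 1, with 5 below 1 and 2 above, and 6 in replicate 2, with 5 below and 1 above. Of all listed genes 33.4% lay below 1 in replicate 1 and 57.1% in replicate 2, and 61.4% of those in both tables lay below 1 in both. The 5 below 1 were the same genes in both tables. They were the pancreas regulator genes pdx1 and nkx6.1, the forkhead gene foxa2, and hnf1ba and onecut1 of the duct programme. The authors' deposited tables placed nkx6.1 at -6.76 and -2.32, pdx1 at -5.93 and -1.99, and foxa2 at -6.34 and -3.62. The values of hnf1ba were -4.82 and -2.98 and those of onecut1 -5.82 and -5.10 in the authors' deposited tables. In replicate 1 nkx2.2a lay between foxa2 and nkx6.1, and in replicate 2 between nkx6.1 and hnf1ba. In both replicates nkx6.1 lay farther from 1 than pdx1.

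Of the regulators listed above 1 under the names of the list, the ETS factor gene fev, best known from serotonin neurons, was at 6.25 and the LIM homeodomain gene isl2a at 5.73 in the authors' deposited table for replicate 1, with fev a floor gene. In the authors' deposited table for replicate 2, mafbb, of the MAF factors, was at 3.22. Each was listed in that table alone. Including the members, 8 of the 11 listed genes of this list lay below 1 in replicate 1, with a median of -5.82 where the table's median was 6.02, and 7 of 8 in replicate 2, with a median of -2.93 where the table's median was -1.90. In all, 12 of the 44 genes (27.3%) were listed in either table, against 7.01% of the genes of the Ensembl name table. By table these shares were 11 of 44 (25.0%) in replicate 1, against 4.36%, and 8 of 44 (18.2%) in replicate 2, against 3.52%. These shares include the 4 regulator members, which were chosen as listed genes. Of the other 40 genes, 7 were listed in replicate 1 and 6 in replicate 2. The shares of the name table count only the 2048 of 3020 listed identifiers that it holds. The list was written with earlier results of these data known, so its shares are a description.

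Further listed genes of these families carry other names in the files and were added after their values were seen. Of 9 such regulator genes, prox1 and hlxb9la (mnx2a in the name table) lay below 1 in each replicate. By the authors' deposited tables hlxb9la was at -6.78 and -5.07 and prox1 at -6.14 and -2.82. On the side of rfx6 in replicate 1 were myt1, a zinc finger factor gene, at 9.76, lmx1a at 7.72, arx, an alpha cell factor gene in the mouse, at 6.35, onecutl at 6.35 and prox2 at 6.14 in the authors' deposited table. Of these, myt1 and lmx1a were floor genes. In replicate 2, isl1l (isl1b in the name table), a floor gene, was at 4.85 and lmx1b.2 at 2.35 in the authors' deposited table. None of the genes above 1 was listed in both tables. Counted with these genes and the members, the regulator list had 10 of 18 listed genes below 1 in replicate 1 and 8 above, and 9 of 12 below in replicate 2 and 3 above.

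Of the 15 islet hormone genes, ins was the only one listed. The other 14, among them the glucagon genes gcga and gcgb, the somatostatin genes sst1.1 and sst2 and ghrl, were in neither table. Of 36 genes of hormone granules and glucose sensing, 2 were listed in each replicate (5.56%, against 4.36% and 3.52% of the name table in replicates 1 and 2), all above 1 and none in both. Of all listed genes 66.6% and 42.9% lay above 1, so neither count stands out from the tables. These were ptprn2, a granule membrane phosphatase-like gene, at 6.16 and the synaptotagmin gene syt4, a floor gene, at 6.07 in the authors' deposited table for replicate 1. In the authors' deposited table for replicate 2 they were g6pcb, a glucose-6-phosphatase gene, at 1.93 and the G protein regulator gene rgs16 at 2.68. The convertase genes pcsk1 and pcsk2 and the granin genes scg3 and chga were not listed under these names. The related gene ptprnb, added after its value was seen, was at 6.17 in the authors' deposited table for replicate 1.

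Most close relatives of the members were in neither table, so most of the sides described here are those of single family members. Of all genes of the name table, 7.01% were listed in either table. Of the 5 SoxC genes, sox11a was the only one listed, and of the 11 RFX genes, rfx6 was. Of the 11 genes of the Nkx2 list, nkx2.2a and the heart factor gene nkx2.5 were listed, the latter at 6.93 and a floor gene in the authors' deposited table for replicate 1. Of the 17 proneural genes, neurog1, at 6.01, and atoh8, at 6.61, lay above 1 in the authors' deposited table for replicate 1, opposite neurog3, and all 3 were floor genes. Of all genes listed in replicate 1, 66.6% lay above 1. In replicate 2, neurod6a was at 3.45 in the authors' deposited table. Neither ascl1b nor neurod1 was in either table. How reads that fit both sox11a and its paralog sox11b, or nkx2.2a and nkx2.2b, were assigned is not stated in the labels.

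**Figure D4:**
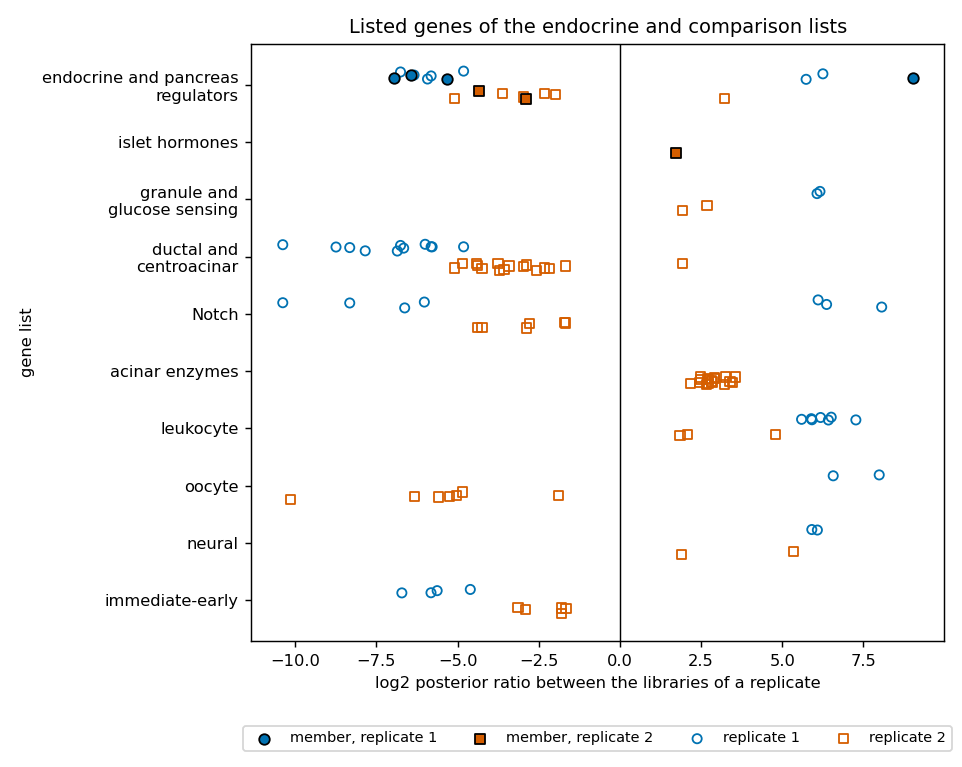
The log2 posterior ratio of each listed gene of the endocrine lists and of the comparison lists, with circles for replicate 1, squares for replicate 2 and filled symbols for the members. The regulator list, under the names of the list, has 8 of 11 genes below 0 in replicate 1 and 7 of 8 in replicate 2, islet hormones hold ins alone at 1.71, and the acinar enzymes lie above 0 in replicate 2 and are absent from replicate 1.

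Other gene lists shared the sides of the members. Of the ductal and centroacinar list of 18 genes, 11 were listed in both replicates. All 11 lay below 1 in both, on the side of nkx2.2a and sox11a, where 61.4% of all genes in both tables lay. No listed gene of the ductal list lay above 1 in replicate 1. In replicate 2, 1 of 16 did, the keratin gene krt18b (KRT18 in the files), with a ratio of 3.82 by the authors' deposited table. The 11 below 1 in both included, by the authors' deposited tables, her15.1 at -10.38 and -4.25, cftr at -8.74 and -4.86 and krt94 at -7.85 and -3.57. Of the 28 Notch genes, 4 were listed in both replicates, all below 1. In replicate 1, 4 lay below 1 and 3 above, against 33.4% and 66.6% of that table. Those 3 were ligand genes, 2 of them floor genes, and none of the 3 was listed in replicate 2. The ductal list shares nkx6.1, hnf1ba and onecut1 with the regulator list. It also shares her15.1 and her15.2, both below 1 in both replicates, with the Notch list, so the counts of these lists overlap. In replicate 1, 7 leukocyte genes and 2 neural genes lay on the side of rfx6, as did 66.6% of that table. None of either list lay below 1 there.

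Immediate-early genes, which respond to tissue dissociation, also lay on the side of nkx2.2a and sox11a. Of 18 such genes, 4 were listed in both replicates. All 4 lay below 1 in both, as did 61.4% of all genes in both tables. None of the 18 was listed above 1 in either replicate. For gadd45bb the authors' deposited tables gave -6.72 and -3.14, and for nr4a2b -5.82 and -2.90. Oocyte genes lay below 1 in replicate 2, with 7 of 13 listed there and all 7 below 1, while the 2 listed in replicate 1 lay above 1. Of all listed genes 57.1% lay below 1 in replicate 2 and 66.6% above 1 in replicate 1. The egg coat gene zp2.5, a floor gene in both, was at 7.99 in replicate 1 and -10.14 in replicate 2 in the authors' deposited tables. The part of dissociation and of oocyte RNA in the ratios of either replicate was not tested.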

How the data were processed

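Sorted cells gave TruSeq libraries, per the labels' protocols. The submitters' processing notes name RSEM, Zv9 and danRer7, without versions or roles, and no source names the model behind the probabilities. The authors deposited, for each replicate, a list of called genes with posterior probabilities as a fraction between 0 and 1. The authors also deposited a posterior and an uncorrected fold, each a linear ratio between 2 libraries. Loci follow the files, and their assembly, Zv9, follows those notes.

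The posterior fold was put on the log2 scale, with no pseudocount or filter, since the tables hold no levels. Members were matched by gene name and list genes by exact symbol in the file or in an Ensembl name table, which holds 2048 of the 3020 listed identifiers. The members and lists were chosen with earlier results of these data known. The rule for named genes took all 5 members, every listed gene of the endocrine and family lists and up to 4 genes of each comparison list. Other genes named (nearest in ratio, near on the chromosome, or under other names) are described as such. With 1 library per group in a table, nothing was tested within it. Across replicates, limma 3.58.1 (R 4.3.3) was fitted to the log2 ratios of all 352 genes in both tables and was first tested on simulated data. The simulated shifts were larger than the mean log2 ratios of the members, and the simulated data lacked the selection for large ratios. The sample descriptions name 1 table for both libraries with the same number, which pairs them. Alternatives were the uncorrected fold, centring each table on its median, a 4-fold minimum, a posterior probability of no difference under 0.001, leaving out floor genes, and each replicate alone.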

Additional observations from a re-analysis of the deposited data

How the results depend on the processing

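The count of 2 members below 1 in both tables (nkx2.2a and sox11a) was 2 with the uncorrected fold, with each table centred on its median, at a 4-fold minimum, at a posterior probability of no difference under 0.001 and without floor genes. In the limma fit, where the replicate is the block, 0 of them passed an adjusted p of 0.05 (2 at an unadjusted p of 0.05). Their limma adjusted p of 0.0816 was 0.391 with the uncorrected fold and 0.396 after centring. The standard error, which limma shared over all genes, was 2.19, 3.71 and 4.44 in the same order. The mean log2 ratio did not shrink, at -4.82, -4.96 and -6.88 for sox11a and -4.65, -4.70 and -6.72 for nkx2.2a. The rise in adjusted p thus came with the larger shared standard error. Left to 1 replicate, the members below 1 numbered 2 to 3 and those above 1 numbered 1 (ins or rfx6), against 0 above 1 in both. Regulator list genes below 1 in both numbered 7, 7 to 8 with 1 replicate, and 9 with genes under other names, an alternative chosen after the data were seen in which 10 of 18 listed genes lay below 1 in replicate 1 against 8 of 11 without them, and those above 1 in both numbered 0, against 1 to 3 with 1 replicate.

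The uncorrected fold moved neurog3 in replicate 1 from -6.95 to -14.11 and rfx6 from 9.03 to 16.20 (log2). Centring subtracts a table's median of 6.02 in replicate 1 and -1.90 in replicate 2. It placed neurog3 at -12.97, nkx2.2a at -12.45, sox11a at -11.34 and rfx6 at 3.0 in replicate 1, and nkx2.2a at -0.99, sox11a at -2.43 and ins at 3.61 in replicate 2. No member changed sides under any setting that kept it, but most settings could not have changed a side. Filters on size, probability or floor cannot do so. Centring moved only rfx6 in replicate 1 and nkx2.2a and sox11a in replicate 2 towards 0, and the other values away from it. The ratio of ins, 3.28, fell short of the 4-fold minimum. Its posterior probability of equal expression, 0.00328, was not under 0.001. Leaving out floor genes removed neurog3 and rfx6. The tables give no depth, so precision from counting is unknown.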
